A study of Mus musculus with 12 samples.

Results

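Cell cycle inhibitors and D cyclins set whether a cell of the developing gonad can enter S phase. The 9 genes described here were picked by symbol, 9 of 32285 gene features counted. They are Cdkn1a, which encodes the p53-responsive inhibitor p21, Cdkn1b, which encodes p27Kip1, and Cdkn2a, Cdkn2b, Cdkn2c and Cdkn2d, which encode the INK4 inhibitors. The D cyclins Ccnd1, Ccnd2 and Ccnd3 complete the set. On GRCm38 (GENCODE M21) Cdkn2a (chr4:89274471-89294653, minus strand) and Cdkn2b (chr4:89306299-89311039, minus) are neighbours, and Cdkn2c lies on the same chromosome (chr4:109660876-109667189, minus). Cdkn1b (chr6:134920401-134925513, plus) shares a chromosome with Ccnd2 (chr6:127125162-127152193, minus), and Cdkn1a (chr17:29090976-29100727, plus) with Ccnd3 (chr17:47505051-47599691, plus). Cdkn2d is at chr9:21288410-21291407 (minus) and Ccnd1 at chr7:144929931-144939925 (minus).

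As background, D cyclins bind the kinases CDK4 and CDK6, and the complex phosphorylates the retinoblastoma protein, which frees E2F factors to switch on S phase genes. INK4 proteins bind CDK4 and CDK6 and keep D cyclins off. The CIP/KIP proteins p21 and p27 bind the assembled kinases and mainly block CDK2. In the fetal mouse gonad the supporting cells of the ovary, the pre-granulosa cells, leave the cell cycle early and express p27, whereas the supporting cells of the testis, the Sertoli cells, keep dividing.

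Gonads were taken at E12 (23 ± 3 tail somites) from XX and XY embryos on a mixed B6CBAF1/JRj background. Each sex was profiled as wild type (WT), as -KTS KO, which cannot make the WT1 variant without the amino acids KTS, and as +KTS KO, a Frasier model (+KTS-/+KTS-) that cannot make the variant with them and makes more -KTS. Both are germline alleles, present in every cell of the embryo, so the loss is not limited to 1 cell type. Each of the 6 groups has 2 droplet libraries, 12 in all. XX -KTS KO replicate 2 and both XY -KTS KO libraries pool gonads of several embryos. Every comparison of a mutant with WT uses the same 2 WT libraries of that sex. The p-values between groups rest on the spread between the 2 libraries of a group, pooled over the 6 groups. Those between cell classes, or by cell cycle phase, rest on the spread over all sums of cells in the fit. Sums from 1 library share its embryos, so a small p there does not measure the spread between 2 libraries.

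Library totals ran from 108111924 to 147968666 UMIs, where a UMI marks 1 captured RNA molecule. Of 103730 barcodes, 83513 were kept as cells, and 69843 of these had a UMI for fewer than 3 markers of each of germ, endothelial, immune, erythroid, perivascular and duct cells and are called gonadal somatic (median 13049 UMIs). Pairs of libraries shared 3 to 35 cell barcodes. Levels are given as CPM, UMIs of a gene scaled to a common library total, the UMIs summed over the named cells of a library. Sex-linked genes matched the labelled sex in 12 of 12 libraries. Wt1 itself had 160.3 to 310 CPM, and tags from the end of the transcript do not separate its -KTS and +KTS variants, so the genotype labels could not be checked this way. Some single libraries stood apart. XX WT replicate 1 had 202 CPM of Cdkn1a against 70.5 in replicate 2. XY +KTS KO replicate 1 had 3013 CPM summed over 15 immediate early and heat shock genes, against 972 to 1508 in the other 11. Its sum of 13 p53 targets was 874 CPM, against 287 to 457, and 1609 of its 6766 gonadal somatic cells had under 5000 UMIs. XX -KTS KO replicate 2 had 1343 germ-like cells with a median of 7082 UMIs, against 211 with a median of 49169 in replicate 1, and 1127 of its 4280 gonadal somatic cells had under 5000 UMIs.

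The promoters shown here are those of the member that passed the test in most comparisons, Cdkn1b, and of the members that carry a motif. RefSeq (GRCm38.p6) listed 11 start sites for 7 members. The 250 bases before each start were searched on both strands for GCGTGGGNG, a motif shared by the WT1 and EGR families, and for TTTNGCGC, an E2F motif. The first is found before 542 of 32851 starts (1.65%) and the second before 372 (1.13%). Sequences run 5′ to 3′ on the strand of the gene, on GRCm38, with the motif in capitals.

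Cdkn1b, chr6:134920151-134920400, plus strand, no motif found: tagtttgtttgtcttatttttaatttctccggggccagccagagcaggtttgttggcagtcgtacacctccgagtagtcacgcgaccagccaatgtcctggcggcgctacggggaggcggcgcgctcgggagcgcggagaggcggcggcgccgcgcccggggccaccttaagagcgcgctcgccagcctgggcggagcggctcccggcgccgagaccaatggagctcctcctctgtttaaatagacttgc
Cdkn2c, chr4:109666757-109667006, minus strand, GCGTGGGNG starting 44 bases before the start site: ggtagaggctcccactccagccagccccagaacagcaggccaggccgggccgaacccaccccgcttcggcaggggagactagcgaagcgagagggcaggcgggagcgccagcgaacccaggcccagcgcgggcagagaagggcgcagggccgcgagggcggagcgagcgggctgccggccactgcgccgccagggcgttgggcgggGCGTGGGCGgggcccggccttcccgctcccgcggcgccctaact
Cdkn2a, chr4:89282193-89282442, minus strand, TTTNGCGC starting 244 bases before the start site: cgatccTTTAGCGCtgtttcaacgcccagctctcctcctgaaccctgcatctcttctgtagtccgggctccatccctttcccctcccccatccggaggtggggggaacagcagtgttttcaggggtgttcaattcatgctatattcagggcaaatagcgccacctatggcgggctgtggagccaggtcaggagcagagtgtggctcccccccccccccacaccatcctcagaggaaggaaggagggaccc

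GC content of the Cdkn1b window was 64.4% with 28 CpG, against medians of 52.4% and 6 over all windows. A match says only that the letters are present, and the 9 other member windows held neither motif. Of the listed Cdkn2a start sites, the window shown lies before the downstream one. The gene encodes p16Ink4a and p19Arf from overlapping transcripts that share their end, so its UMIs cannot be assigned to either.

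Cdkn1b, the p27 gene, was the member with the clearest pattern in gonadal somatic cells. It was high in XX WT, low in XY WT and intermediate in all mutants of either sex. The XX WT libraries had 124 and 133 CPM and the XY WT libraries 27.5 and 33.7. The -KTS KO levels were 78.9 and 75.7 CPM (XX) and 83.6 and 93.1 (XY), and the +KTS KO levels 62.2 and 81.4 (XX) and 60.9 and 82.9 (XY). No mutant library reached an XX WT library or fell as low as an XY WT library, while the 4 mutant groups overlapped or adjoined each other.

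Tested on the sums with edgeR's quasi-likelihood test (Benjamini-Hochberg adjusted p over all genes), Cdkn1b was lower in XY WT than in XX WT by a log2 fold change of -2.07 (SE 0.19, adjusted p = 0.000272). It fell in XX -KTS KO (-0.73, SE 0.18, adjusted p = 0.0239) and in XX +KTS KO (-0.84, SE 0.18, adjusted p = 0.0298). In XY it rose, by 1.53 (SE 0.19, adjusted p = 0.000493) in -KTS KO and by 1.23 (SE 0.19, adjusted p = 0.00363) in +KTS KO. The difference between the sexes in the response was itself tested. The sex by genotype interaction was 2.27 (SE 0.26, adjusted p = 0.00489) for -KTS KO and 2.07 (SE 0.26, adjusted p = 0.00426) for +KTS KO. Cdkn1b was the 1 member of 9 called in each interaction, where 3.15% and 3.97% of all genes were called. Without any 1 library the interactions kept adjusted p-values of at most 0.0289 (-KTS KO) and 0.0291 (+KTS KO), but each XX fall lost its call (up to 0.131 for -KTS KO and 0.187 for +KTS KO). Sums over a whole tissue mix cell classes, and fewer cells of a class and less RNA per cell cannot be told apart in them.

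**Figure D1:**
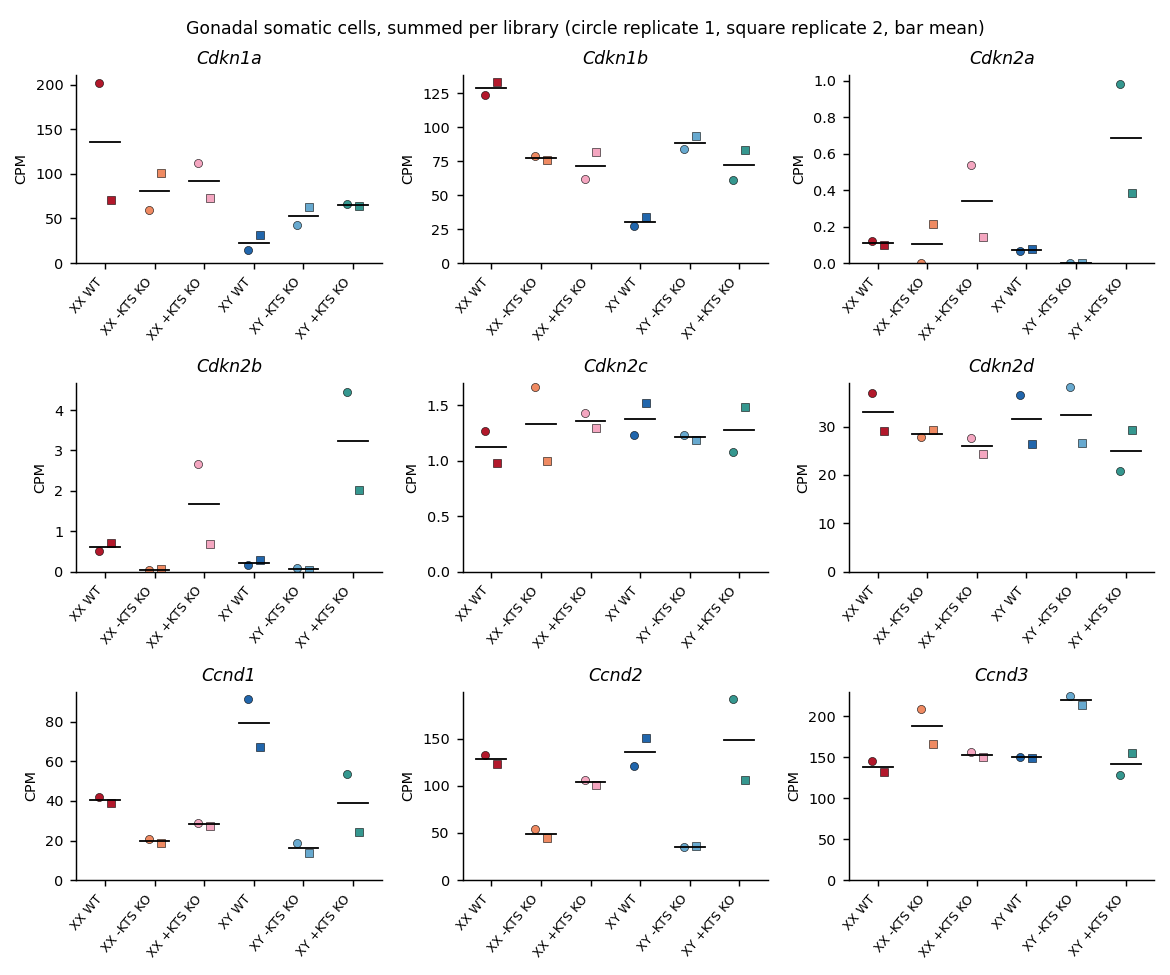
CPM (linear axis from 0) of each member in the gonadal somatic cells of each library, by group. Circles are replicate 1, squares replicate 2 and bars the mean of the 2 libraries. Cdkn1b sits at 124 and 133 CPM in XX WT and at 27.5 and 33.7 in XY WT, with the mutant libraries between them.

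Cdkn1a, the p21 gene, had the same order of WT groups but a wide spread. XX WT had 202 and 70.5 CPM and XY WT 14.3 and 31.2. The XX mutants lay at 59.7 and 101 (-KTS KO) and at 112 and 72.8 (+KTS KO), and the XY mutants at 42.8 and 62.6 (-KTS KO) and at 66.6 and 63.6 (+KTS KO). The XY mutant libraries did not overlap with XY WT, and the XX mutant libraries overlapped with XX WT. Cdkn1a was lower in XY WT than in XX WT (log2 fold change -2.58, SE 0.53, adjusted p = 0.0122). This call was lost without XX WT replicate 1 or without XY WT replicate 1, where the log2 fold change ran from -3.26 to -1.63 over single libraries left out and the adjusted p reached 0.0989. In the XY mutants it was 1.21 (SE 0.51, adjusted p = 0.115) for -KTS KO and 1.52 (SE 0.51, adjusted p = 0.0788) for +KTS KO, which did not pass. Of a list of 13 other p53 target genes, 12 were tested between XY WT and XX WT. Of these 1 was lower (Trp53inp1, -0.96, SE 0.22, adjusted p = 0.0198) and none higher, beside 13.7% of all autosomal genes called.

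Among the D cyclins, Ccnd2 and Ccnd1 were low in -KTS KO of both sexes. Ccnd2, the D cyclin known for granulosa and Sertoli cell proliferation, had 133 and 123 CPM in XX WT and 121 and 150.4 in XY WT. In -KTS KO it had 54.2 and 44.1 (XX) and 35.2 and 35.9 (XY), below every library of the other groups. The +KTS KO libraries had 106 and 101 (XX) and 192 and 106 (XY). In -KTS KO Ccnd2 fell by 1.38 on the log2 scale in XX (SE 0.24, adjusted p = 0.00515) and by 1.93 in XY (SE 0.25, adjusted p = 0.000654). The XX call was lost without XX -KTS KO replicate 2 (adjusted p = 0.0523).

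Ccnd1, a D cyclin induced by mitogens, had 42.1 and 38.9 CPM in XX WT and 91.3 and 67.1 in XY WT. In -KTS KO it had 20.6 and 18.7 (XX) and 18.8 and 13.9 (XY), with no overlap with WT of either sex. In -KTS KO it fell by 2.28 on the log2 scale in XY (SE 0.32, adjusted p = 0.00109) and by 1.04 in XX (SE 0.31, adjusted p = 0.0473). The XX call did not hold without any 1 of its 4 libraries (adjusted p 0.108 to 0.211). In +KTS KO the levels were 28.7 and 27.5 (XX) and 53.7 and 24.5 (XY). The XY difference of -1.02 (SE 0.31, adjusted p = 0.0581) did not pass. Without XY +KTS KO replicate 1, the library with high immediate early genes, the XY difference was -1.67. The part of those genes in this change was not tested.

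Ccnd3, the D cyclin of blood cells and many other tissues, moved the other way. XY -KTS KO had 226 and 215 CPM against 150.7 and 149 in XY WT, a log2 fold change of 0.55 (SE 0.14, adjusted p = 0.0208). XX -KTS KO had 209 and 167 against 146 and 132, a difference of 0.44 (SE 0.14, adjusted p = 0.0673) that did not pass although the libraries did not overlap. The XY call was lost without any 1 of its 4 libraries (adjusted p 0.0883 to 0.107). The +KTS KO libraries had 156 and 150.1 (XX), just above XX WT, and 129 and 156 (XY), around XY WT, and neither difference passed.

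The INK4 genes were rare except Cdkn2d. Cdkn2b, which encodes p15Ink4b, had 0.499 and 0.704 CPM in XX WT, 0.154 and 0.286 in XY WT, and 4.45 and 2.02 in XY +KTS KO. XX +KTS KO had 2.65 and 0.678, and the -KTS KO libraries had 0.0453 to 0.0920. XY +KTS KO lay above every WT library, XX +KTS KO replicate 2 lay within the range of XX WT, and no -KTS KO library overlapped with WT. In counts, XY +KTS KO had 614 UMIs against 31 in XY WT, 15.4 times as many per UMI (95% exact interval 10.8 to 22.9, counting error only). XX -KTS KO had 7 against 109, a ratio of 0.0761 (0.0299 to 0.162).

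Cdkn2b rose in XY +KTS KO (log2 fold change 3.88, SE 0.69, adjusted p = 0.00786) and fell in XX -KTS KO (-3.58, SE 0.83, adjusted p = 0.0177). The rise was lost without XY WT replicate 1 (adjusted p = 0.0743), and the fall without 3 of 4 libraries (up to 0.123). In XX +KTS KO the 337 UMIs against 109 (ratio 2.72, 2.19 to 3.41) gave 1.46 (SE 0.62, adjusted p = 0.24). The XY -KTS KO libraries had 11 UMIs against 31, and this difference did not pass (-1.67, SE 0.83, adjusted p = 0.177).

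Cdkn2a was at or near 0 in gonadal somatic cells. WT libraries held 9 and 10 UMIs (XX) or 5 and 5 (XY), and +KTS KO libraries 56 and 13 (XX) or 88 and 41 (XY). In -KTS KO 3 of 4 libraries held 0 UMIs, and XX -KTS KO replicate 2 held 12. Summed germ cell markers (8 genes) in the same gonadal somatic cells were 14.8 CPM in XX -KTS KO replicate 1 and 15.9 and 15.7 in XY -KTS KO, against 46.0 to 82.5 in the other 9 libraries, XX -KTS KO replicate 2 included at 70.8. All 8 were above 0 in 11 libraries, and Mael was at 0 in XY +KTS KO replicate 2. The part of germ cell RNA in the Cdkn2a counts was not tested. In XY +KTS KO the ratio to XY WT was 10.1 (95% exact interval 5.30 to 21.5, 129 UMIs against 10), and the fit gave 3.27 (SE 1.15, adjusted p = 0.0957).

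Cdkn2c (p18Ink4c) had 0.978 to 1.66 CPM and Cdkn2d (p19Ink4d) 20.8 to 38.1 CPM across the 12 libraries. Neither was called in any of the 5 comparisons of gonadal somatic cells or in the interactions.

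Counted over the members, 4 of 9 fell and none rose in XX -KTS KO, where 16.3% of 17912 genes were called. In XY -KTS KO 2 rose and 2 fell, beside 23.4% of all genes. In XX +KTS KO 1 fell (5.06% of genes), in XY +KTS KO 2 rose (12.6%), and between the WT sexes 2 were lower in XY (13.7% of 17279 autosomal genes). The median log2 fold change over the 9 members was -0.73 (XX -KTS KO), -0.18 (XY -KTS KO), -0.31 (XX +KTS KO), 0.13 (XY +KTS KO) and -0.066 (WT sexes), beside 0.0082, 0.012, 0, 0.050 and -0.018 over all genes.

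**Figure D2:**
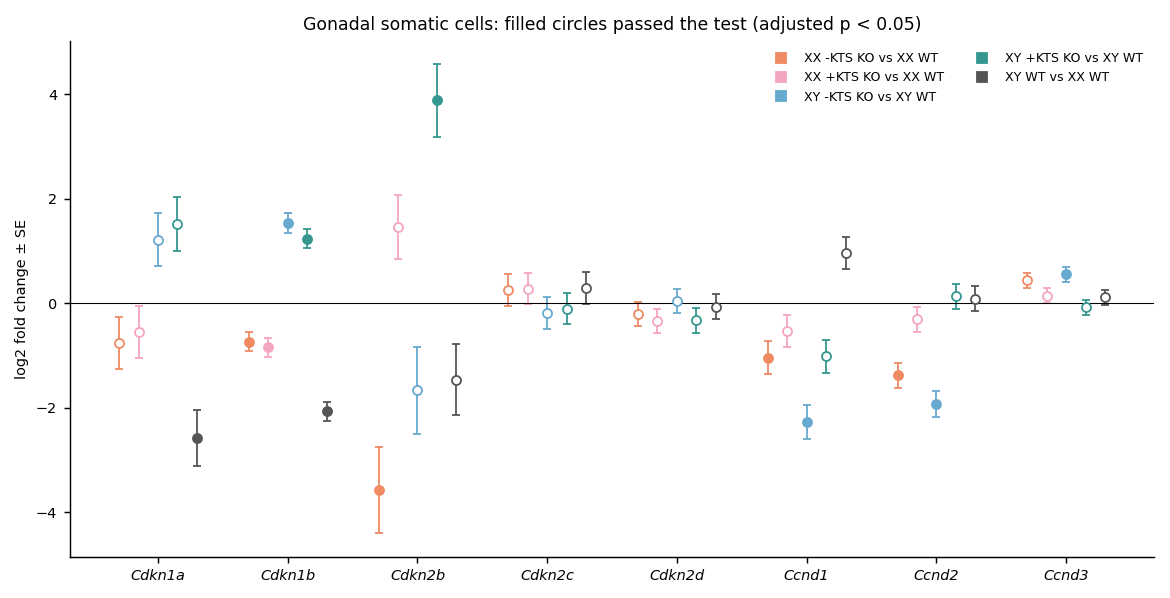
Log2 fold change with its SE for 8 members in the 5 comparisons of gonadal somatic cells, from edgeR. Filled circles passed an adjusted p of 0.05. Cdkn2a is left out, since both XY -KTS KO libraries held 0 UMIs. Cdkn1b lies below 0 in the XX mutants and above 0 in the XY mutants, and Ccnd1 and Ccnd2 lie below 0 in -KTS KO of both sexes.

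Members were next followed in cell classes. A cell was placed in a class when at least 3 markers of that class had a UMI. XX WT held 1895 and 1946 pre-granulosa-like cells (mean Foxl2 41.5 CPM, Fst 889) and the +KTS KO libraries 105 to 759 (Fst 108 in XX and 167 in XY). The -KTS KO libraries held 122 to 188 cells in this gate, with Foxl2 at 3.41 (XX) and 0.864 (XY) and Fst at 116 and 71.6, so they are called pre-granulosa-gated only and no comparison of them is given. XY WT held 1934 and 1427 Sertoli-like cells (mean Sox9 451 CPM, Amh 349.8, Foxl2 0.807), and no -KTS KO or XX WT library held 50. Sertoli-gated cells of +KTS KO held Sox9 at 7.73 (XX) and 118 (XY) with Foxl2 at 17.0 and 26.6, and are therefore called Sertoli-gated only. The -KTS KO libraries held 214 to 461 pre-supporting-like cells with Runx1 and Wnt6 and little Foxl2 (0.424 CPM in XX and 0 in XY).

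Pre-granulosa-like cells of XX WT had high levels of both CIP/KIP inhibitors. Cdkn1b had 186 and 206 CPM there, against 21.1 and 25.1 in the interstitial-like cells of the same libraries. Cdkn1a had 249 and 86.2 against 28.0 and 12.6. The classes did not overlap for either gene, and replicate 1 was the higher for Cdkn1a in both classes. The class fit used the library as a block and class effects shared by XX and XY libraries of a genotype. Its estimates, here and for the other classes, can therefore differ from the ratio of the CPM values printed beside them. By this fit Cdkn1b was higher by 2.81 on the log2 scale (SE 0.20, adjusted p = 7.42e-19) and Cdkn1a by 3.07 (SE 0.31, adjusted p = 5.38e-13). At a fixed depth of 5000 UMIs per cell, 56.6% and 60.8% of pre-granulosa-like cells had a Cdkn1b UMI, against 11.7% and 14.6% of interstitial-like cells, and Cdkn1a was seen in 53.5% and 27.0%, against 12% and 5.99%. Without thinning, Cdkn1b was seen in 79.3% and 85.8% of pre-granulosa-like cells.

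The same cells were low in Ccnd1, with 18.7 and 15.4 CPM against 47.8 and 39.0 in interstitial-like cells (-1.74, SE 0.27, adjusted p = 9.25e-08). Cdkn2c was lower as well (-2.75, SE 0.43, adjusted p = 6.62e-08). Ccnd2 (-0.69, SE 0.22, adjusted p = 0.00532) and Ccnd3 (-0.34, SE 0.13, adjusted p = 0.0282) were lower and Cdkn2b higher (1.53, SE 0.64, adjusted p = 0.0366). In all 7 of 9 members passed, beside 54.5% of all genes. Without XX WT replicate 2, Ccnd2 (adjusted p = 0.0923), Ccnd3 (0.334) and Cdkn2b (0.328) lost their calls, as did Cdkn2b without XY WT replicate 1 (0.153).

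In Sertoli-like cells of XY WT neither Cdkn1a nor Cdkn1b was called. Cdkn1b had 21.6 and 24.3 CPM and Cdkn1a 4.21 and 14.1, which overlap or lie near the interstitial-like levels of the same libraries. Ccnd1 was 67.6 and 62.3 CPM, against 76.5 and 59.4. Of 9 members, 2 passed, beside 54.6% of genes. Ccnd3 was lower (-1.06, SE 0.14, adjusted p = 1.17e-09), with 56.8 and 74.3 CPM against 141 and 131, and Cdkn2c was lower too (-0.86, SE 0.35, adjusted p = 0.0329). The Cdkn2c call was lost without XX WT replicate 1 (adjusted p = 0.0553) or XY WT replicate 2 (-0.053, adjusted p = 0.96). For Cdkn1b the difference was 0.34 (SE 0.21, adjusted p = 0.176). Among cells with no G2/M marker, an alternative chosen after seeing the data, it was 0.83 and passed (adjusted p = 0.00815), as did Cdkn2d (0.76, adjusted p = 0.0012), and Cdkn2c was too rare to test. Cdkn1b and Cdkn2d were not the only members called in that alternative. In the main fit Ccnd2 was not called (-0.32, SE 0.22, adjusted p = 0.204).

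**Figure D3:**
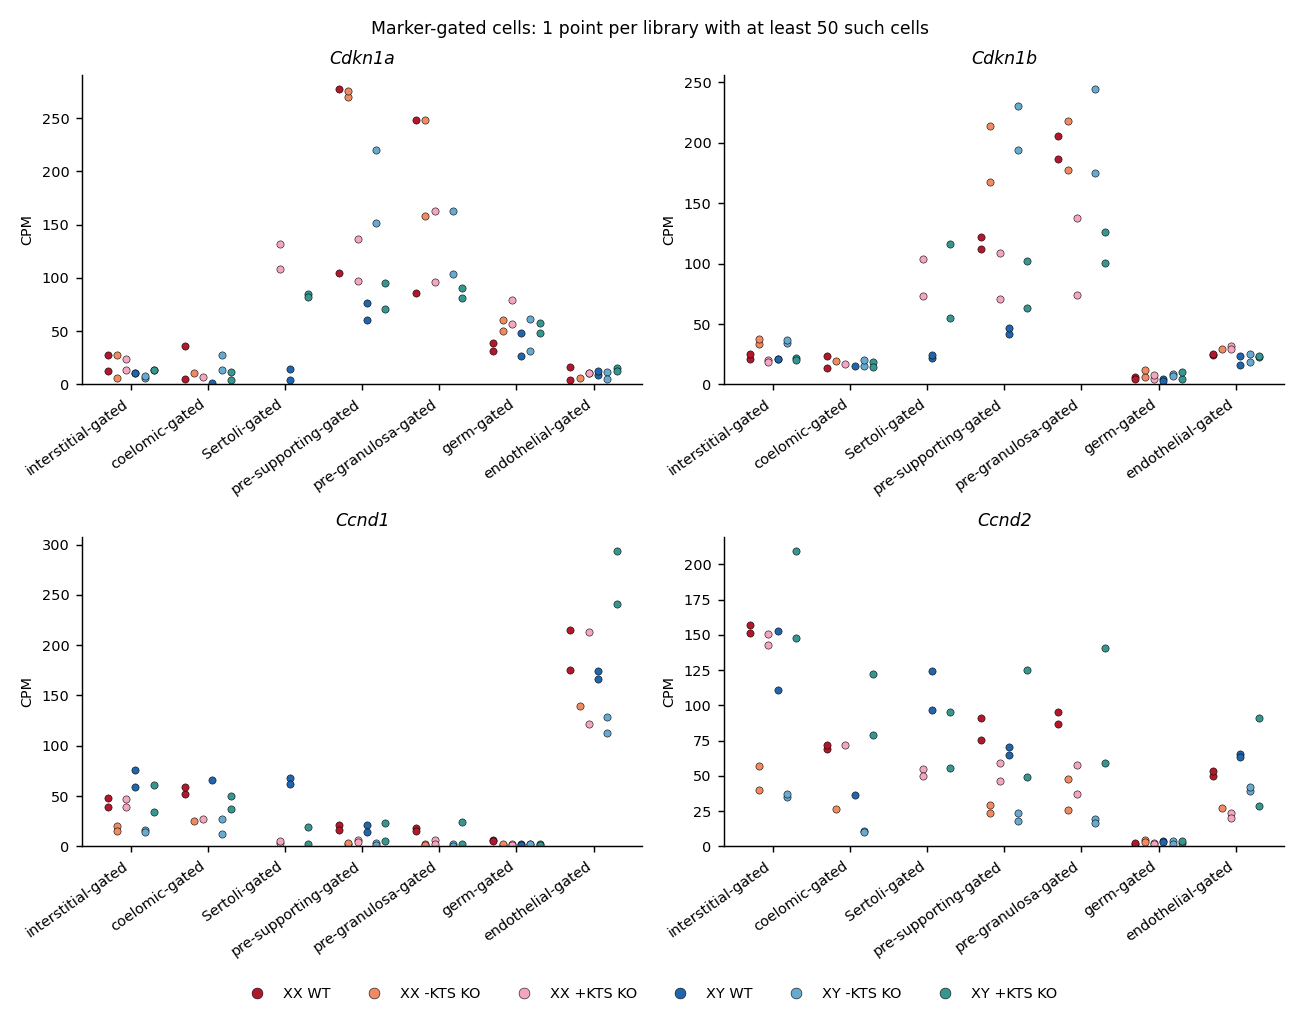
CPM (linear axis from 0) of Cdkn1a, Cdkn1b, Ccnd1 and Ccnd2 in cells gated by the markers of each class, 1 point for each library with at least 50 such cells, coloured by group. Both inhibitors are high in pre-supporting-gated and pre-granulosa-gated cells, with Cdkn1b at 186 and 206 CPM in XX WT pre-granulosa-like cells, and Ccnd1 is highest in endothelial-gated cells among the classes drawn.

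In both mutants Cdkn1a and Cdkn1b were high in cells with supporting lineage markers. Pre-supporting-like cells of -KTS KO had Cdkn1a at 269.5 and 276 CPM (XX) and 152 and 220.0 (XY), against 6.05 to 27.3 in interstitial-like cells of the same 4 libraries. Cdkn1b was at 214 and 167 (XX) and 194 and 230.2 (XY), against 33.3 to 38.0. Both classes stood apart in every library, with log2 fold changes of 4.44 (SE 0.28, adjusted p = 1.39e-21) and 2.51 (SE 0.16, adjusted p = 1.07e-20).

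In those cells Ccnd1 (-2.74, SE 0.36, adjusted p = 1.04e-09), Ccnd2 (-0.85, SE 0.20, adjusted p = 0.000237) and Cdkn2c (-3.92, SE 0.73, adjusted p = 3.6e-06) were lower. Ccnd3 (0.42, SE 0.11, adjusted p = 0.000487) and Cdkn2d (0.30, SE 0.12, adjusted p = 0.0362) were higher. Ccnd3 lost its call without either XY -KTS KO library (adjusted p up to 0.287), and Cdkn2d without either of these or XX -KTS KO replicate 1 (up to 0.544). The 7 of 9 members called stand beside 51.6% of genes.

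Pre-supporting-gated cells were found in all 6 groups, and no test between groups was run in this class. The gate held cells with unlike marker levels. Mean Sox9 levels were 95.8 (XY) and 5.70 (XX) CPM in WT, and 27.9 (XY) and 4.33 (XX) in -KTS KO. Fst had 383 CPM in XX WT and 19.0 to 46.2 in the other 5 groups, and Bmp2 had 48.5 (XX) and 60.2 (XY) in -KTS KO against 28.6 and 12.3 in WT. The G2/M-gated share was 13.8% and 16.9% in XY WT, 8.72% and 8.42% in XX WT and 2.57% to 7.94% in -KTS KO. The part of these in the values that follow was not tested. Cdkn1b had 112 and 122 CPM in XX WT but 41.7 and 47.1 in XY WT, and +KTS KO had 70.6 and 109 (XX) and 63.4 and 102 (XY). The -KTS KO libraries, at 167 to 230.2 CPM, lay above all others. Cdkn1a had 277 and 105 CPM in XX WT and 60.9 and 76.6 in XY WT, with 136 and 96.8 (XX) and 95.1 and 70.8 (XY) in +KTS KO. All 4 -KTS KO libraries, at 152 to 276 CPM, exceeded every other library but XX WT replicate 1.

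Ccnd1 in the same cells had 21.7 and 16.0 CPM in XX WT and 21.1 and 14.9 in XY WT, against 2.21 and 3.42 (XX) and 3.44 and 1.34 (XY) in -KTS KO. Ccnd2 had 90.9 and 75.3 in XX WT and 70.4 and 64.7 in XY WT, against 29.4 and 23.4 (XX) and 23.4 and 17.8 (XY) in -KTS KO. For both cyclins every -KTS KO library lay below every library of the other groups. Ccnd3 had 211 and 150.5 CPM (XX) and 227 and 253 (XY) in -KTS KO, against 128 and 116 in XX WT and 167 and 174 in XY WT.

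Pre-granulosa-like cells of +KTS KO (Foxl2 45.4 CPM in XX and 53.9 in XY) had Cdkn1b at 74.1 and 138 CPM (XX) and 100.4 and 126 (XY), and Cdkn1a at 163 and 96.3 (XX) and 80.7 and 90.5 (XY). Against interstitial-like cells of the same libraries the differences were 2.40 (SE 0.17, adjusted p = 8e-19) for Cdkn1b and 2.71 (SE 0.27, adjusted p = 3.54e-13) for Cdkn1a. Of 9 members 8 passed, beside 52.2% of genes. Ccnd1 (-2.37, SE 0.26, adjusted p = 3.44e-12), Ccnd2 (-1.26, SE 0.18, adjusted p = 1.51e-08), Ccnd3 (-0.36, SE 0.11, adjusted p = 0.00392) and Cdkn2c (-2.11, SE 0.49, adjusted p = 0.00017) were lower.

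These cells also carried the INK4 genes of the Ink4 locus, which lie next to each other on chromosome 4. Cdkn2b had 1.31 and 2.13 CPM (XX) and 3.63 and 4.72 (XY), against at most 0.442 in interstitial-like cells, and was higher by 4.09 (SE 0.45, adjusted p = 6.42e-13). Cdkn2a was higher by 4.09 (SE 0.83, adjusted p = 2.71e-05), but it was at 0 in both XX libraries and at 1.19 and 1.29 CPM in the XY libraries. Sertoli-gated cells of +KTS KO held more Cdkn2b, at 6.21 and 4.55 CPM (XX) and 11.4 and 9.45 (XY), against 0.0809 and 0.282 in Sertoli-like cells of XY WT. At 5000 UMIs per cell, 5% and 3.60% of Sertoli-gated XY +KTS KO cells had a Cdkn2b UMI, against 0.0535% and 0.0732% of Sertoli-like XY WT cells. No library of 1 group overlapped with the other. The gate held unlike cells, since those of +KTS KO had less Sox9 and more Foxl2 than those of XY WT, as given above. The values therefore do not compare genotypes within 1 cell type, and the difference was not tested.

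Germ-like cells, which carry Dazl and Pou5f1, had the highest Cdkn2a level of the classes measured. It had 21.6 and 25.0 CPM in XX WT and 23.7 and 29.0 in XY WT, and 14.4 to 38.9 CPM in the 8 mutant libraries, against at most 0.0891 in interstitial-like cells of any library. After thinning, 9.07% to 12.3% of WT germ-like cells had a UMI. The difference to interstitial-like cells of WT was 8.28 (SE 0.29, adjusted p = 1.69e-34). Cdkn2b (3.71, SE 0.42, adjusted p = 7.44e-13), Cdkn1a (1.42, SE 0.27, adjusted p = 3.34e-06) and Ccnd3 (0.47, SE 0.10, adjusted p = 4.31e-05) were higher too.

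Germ-like cells held little Ccnd1 and Ccnd2. Ccnd2 had 1.86 and 2.71 CPM in XX WT and 3.99 and 3.06 in XY WT (-5.62, SE 0.23, adjusted p = 5.69e-32). Ccnd1 had 5.99 and 5.55 in XX WT and 2.27 and 1.64 in XY WT (-3.91, SE 0.25, adjusted p = 1.12e-23). Cdkn1b (-2.32, SE 0.20, adjusted p = 2.4e-16) and Cdkn2c (-1.95, SE 0.32, adjusted p = 7.21e-08) were lower, so 8 of 9 members passed, beside 81.0% of all genes.

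Between genotypes, no member was called in germ-like cells by edgeR, the only tool run there. The shares of all genes called were 0.0610% (XX -KTS KO), 0% (XY -KTS KO), 0.0915% (XX +KTS KO) and 0% (XY +KTS KO). At an unadjusted p under 0.05 the members counted 1, 2, 2 and 1 in that order, beside 1390, 748, 1012 and 1082 of 13119 genes. The 1 in XX -KTS KO was Ccnd1, with 1.66 and 2.19 CPM against 5.99 and 5.55 (-1.53, SE 0.36, adjusted p = 0.173). In XX +KTS KO they were Ccnd1 (-1.29, SE 0.37, adjusted p = 0.36) and Cdkn1a (1.01, SE 0.32, adjusted p = 0.452). In XY -KTS KO they were Cdkn1b (1.06, SE 0.43, adjusted p = 0.829) and Cdkn2a (-0.70, SE 0.24, adjusted p = 0.682). The 1 in XY +KTS KO was Cdkn1b (1.09, SE 0.44, adjusted p = 0.551).

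Endothelial-like cells were rich in Ccnd1, with 215 and 176 CPM in XX WT and 174 and 167 in XY WT, higher than interstitial-like cells by 1.71 (SE 0.20, adjusted p = 1.79e-11). Ccnd2 was lower there (-1.28, SE 0.18, adjusted p = 2.1e-08) and Cdkn2d higher (0.48, SE 0.13, adjusted p = 0.00118). These 3 of 9 members stand beside 54.0% of genes.

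**Figure D4:**
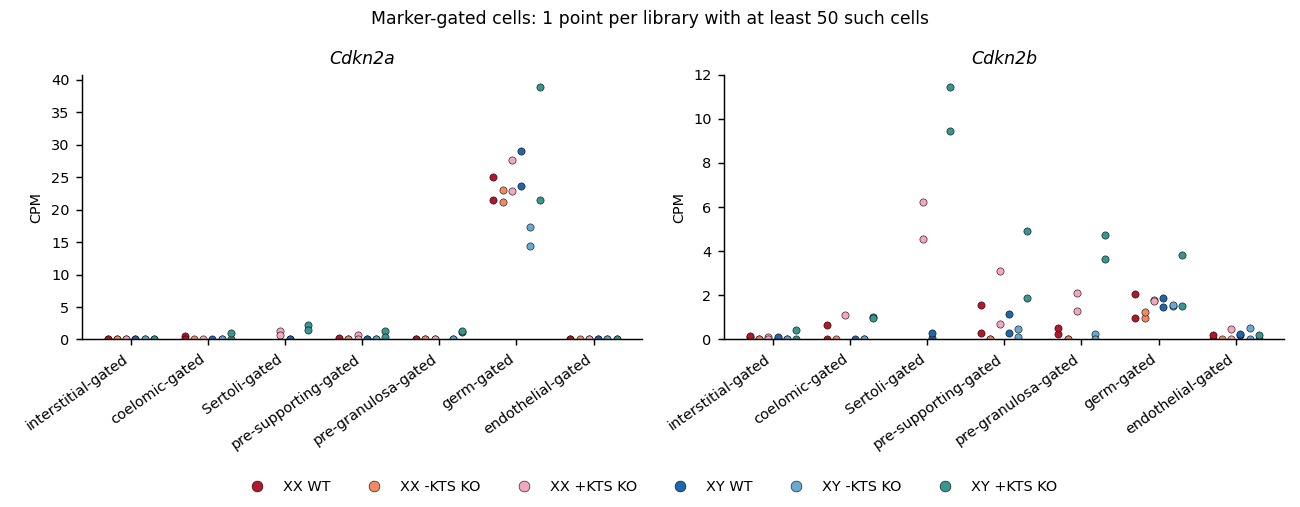
CPM (linear axes from 0) of Cdkn2a and Cdkn2b in gated cells, 1 point for each library with at least 50 such cells. Cdkn2a lies at 14.4 to 38.9 CPM in germ-gated cells and near 0 elsewhere, and Cdkn2b is highest in Sertoli-gated cells of XY +KTS KO, at 11.4 and 9.45 CPM.

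Within interstitial-like cells the genotypes could be compared in 1 class with at least 1050 cells in every library. Here Cdkn1b rose in -KTS KO of both sexes. It had 33.3 and 38.0 CPM in XX -KTS KO against 21.1 and 25.1 in XX WT (0.63, SE 0.13, adjusted p = 0.0181), and 34.2 and 36.4 in XY -KTS KO against 20.9 and 21.4 (0.69, SE 0.13, adjusted p = 0.00464). The libraries did not overlap in either sex. In XX the direction was thus opposite to that in the gonadal somatic sum of XX, where XX WT holds 1895 and 1946 pre-granulosa-like cells. The part of class mix in the fall of that sum was not tested.

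Ccnd2 fell in the same cells, from 157 and 151 CPM to 57.3 and 39.8 in XX (-1.66, SE 0.22, adjusted p = 0.00212) and from 111 and 153 to 34.7 and 37.5 in XY (-1.91, SE 0.22, adjusted p = 0.000418). Ccnd1 fell from 47.8 and 39.0 to 19.9 and 15.7 in XX (-1.27, SE 0.26, adjusted p = 0.0194) and from 76.5 and 59.4 to 15.9 and 14.1 in XY (-2.23, SE 0.27, adjusted p = 0.000525). These were 3 of 7 members tested in each sex, beside 5.63% (XX) and 19.8% (XY) of all genes. The 3 XY calls held without any 1 library, as did Ccnd2 in XX, whereas Cdkn1b and Ccnd1 in XX lost theirs without any 1 of 4. In +KTS KO none of 7 was called by edgeR, beside 0.534% (XX) and 4.42% (XY) of genes, and 0 and 1 had an unadjusted p under 0.05, beside 1428 and 3539 of 14971 genes. The G2/M-gated share of interstitial-like cells was 24.2% to 31.0% in -KTS KO, against 34.5% and 35.3% in XX WT and 53.1% and 53.5% in XY WT, and 22 of 24 proliferation genes were lower in XY -KTS KO and 1 of 24 in XX -KTS KO. The part of this in the falls of Ccnd1 and Ccnd2 within the class was not tested. Summed perivascular markers (7 genes, Higd1b at 0 in every group) were 29.4 to 34.7 CPM in these cells of XX -KTS KO and 36.7 to 39.9 in XY -KTS KO, against 28.9 to 39.5 and 33.7 to 50.9 in WT. The 7 markers of the class itself summed to 664 to 942 (XX) and 799 to 1047 (XY) CPM in -KTS KO, overlapping with 896 to 1041 and 937 to 1120 in WT, with none at 0. Among them Pdgfra had a mean of 47.6 (XX) and 43.7 (XY) CPM against 81.9 and 68.8 in WT, whereas Nr2f2 had 149 and 158 against 177 and 136. The 5 pre-supporting markers summed to 42.2 to 94.4 (XX) and 65.3 to 82.1 (XY) CPM in these cells of -KTS KO, against 108 to 128 and 129 to 164 in WT, with none at 0, and Wnt6 of that list had means of 6.54 and 5.02 against 42.7 and 40.8. The part of these markers in the falls was not tested.

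Members were compared by cell cycle phase over all gonadal somatic cells together, whatever their class. Gonadal somatic cells with at least 3 of 9 G2/M markers were set against cells with none, within each library. Cdkn2c was at most 0.256 CPM in cells with none and 2.09 to 4.36 in G2/M-gated cells (log2 difference 4.79, SE 0.17, adjusted p = 7.81e-14), and Cdkn2d was higher as well (0.77, SE 0.06, adjusted p = 1.14e-08). Cdkn1a (-1.80, SE 0.08, adjusted p = 2.38e-11) and Cdkn1b (-0.82, SE 0.12, adjusted p = 1.14e-05) were lower. For Cdkn1b the XY WT libraries were the exception, with 28.0 and 36.9 CPM in cells without a marker and 29.3 and 33.2 in G2/M-gated cells. The G2/M-gated share differs between classes, so both sets of cells differ in class mix too. In XX WT it was 6.49% and 6.78% in pre-granulosa-like cells, against 34.5% and 35.3% in interstitial-like cells. The part of class mix in the phase differences of any member was not tested.

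Of the D cyclins, Ccnd1 was higher in G2/M-gated cells (0.44, SE 0.10, adjusted p = 0.000764), and Ccnd2 (-0.50, SE 0.06, adjusted p = 1.13e-06) and Ccnd3 (-0.11, SE 0.04, adjusted p = 0.0202) were lower. All 7 members tested passed, beside 75.4% of genes, and Cdkn2a and Cdkn2b were too rare to be tested.

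The share of G2/M-gated gonadal somatic cells moved with sex and genotype. It was 43.9% and 36.9% in XY WT and 20.8% to 28.5% in the other 10 libraries, or 36.0% and 28.1% against 14.7% to 19.7% at 5000 UMIs per cell. In pre-granulosa-like cells of XX WT it was 6.49% and 6.78%, and in interstitial-like cells 34.5% and 35.3%. The summed level of 24 proliferation genes was 3436 and 2545 CPM in XY WT and 1654 to 2024 in the other libraries. With G2/M-marked cells left out, Cdkn1b kept its interactions (2.53, adjusted p = 0.004, and 2.40, adjusted p = 0.00319) and its difference between the WT sexes (-2.38, adjusted p = 0.000247). That alternative was chosen after seeing the data. It leaves the class mix and the other cell cycle phases as they were. The part of proliferation in the Cdkn1b pattern was not tested.

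**Figure D5:**
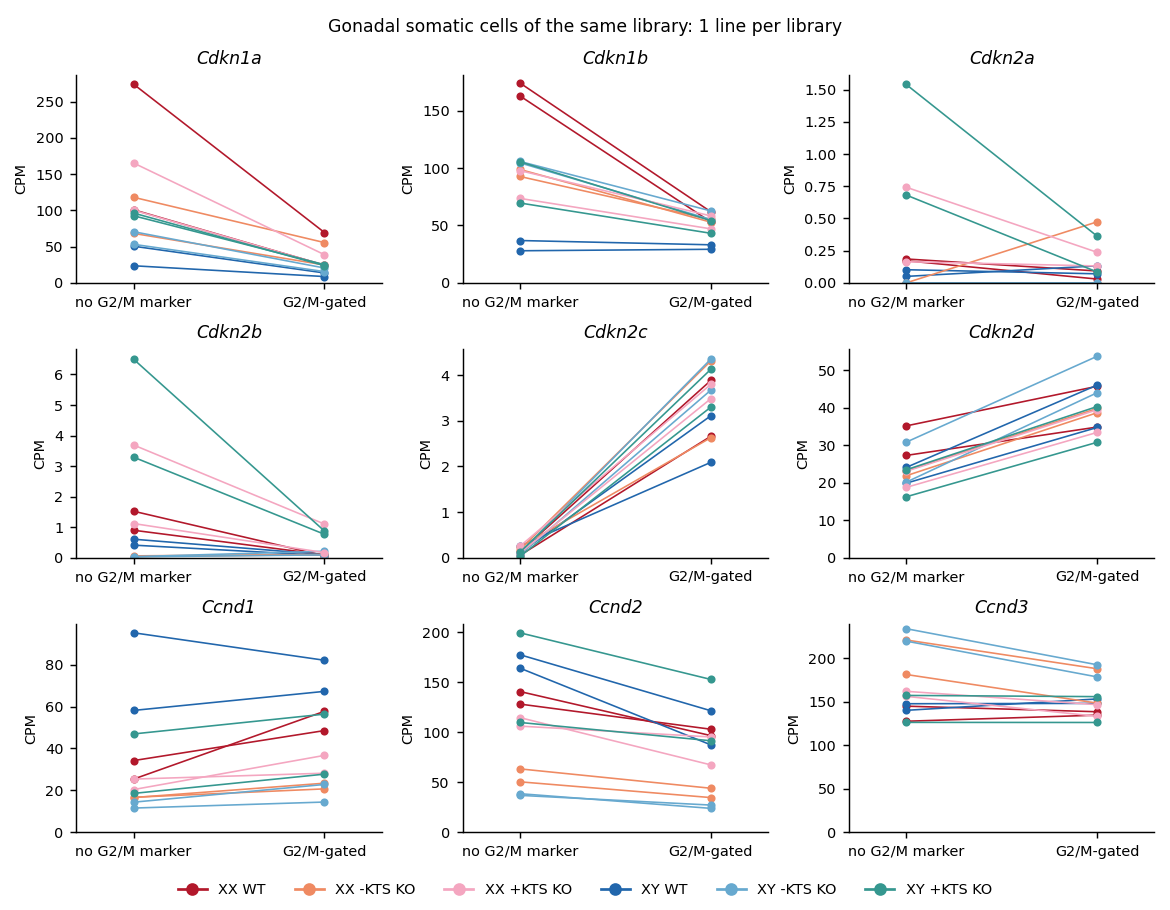
CPM (linear axes from 0) of each member in gonadal somatic cells with no G2/M marker and with at least 3, joined within each library and coloured by group. Cdkn2c rises in all 12 libraries to between 2.09 and 4.36 CPM, Cdkn1a falls in all 12, and Cdkn1b is nearly level in XY WT.

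The rest of the pathway was taken as 24 genes of E2F factors, retinoblastoma proteins, cyclins E and A and their kinases and regulators. In gonadal somatic cells of XX mutants 1 of 24 passed, Cdkn1c, the p57 gene, which fell in -KTS KO (-0.97, SE 0.19, adjusted p = 0.00863) and +KTS KO (-1.10, SE 0.19, adjusted p = 0.0131). Cdkn1c was also lower in XY WT than XX WT (-1.71, SE 0.20, adjusted p = 0.000795), and rose in XY -KTS KO (0.79, SE 0.19, adjusted p = 0.0154). Its interactions were 1.76 (SE 0.27, adjusted p = 0.0125) and 1.67 (SE 0.27, adjusted p = 0.0122). In XY -KTS KO 7 of 24 fell, among them E2f1 (-1.04, SE 0.18, adjusted p = 0.00342), an activator of S phase genes, and 2 rose. In XY +KTS KO 1 fell (Ccna2, -0.91, SE 0.22, adjusted p = 0.0252), and between the WT sexes 4 were higher in XY and 1 lower. Of all genes 16.3% (XX -KTS KO), 5.06% (XX +KTS KO), 23.4% (XY -KTS KO), 12.6% (XY +KTS KO) and 13.7% (WT sexes) were called.

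By class, 17 of 24 pathway genes were lower and 4 higher in pre-granulosa-like cells of XX WT, where Cdkn1c was higher by 2.13 (SE 0.23, adjusted p = 2.52e-12) and E2f8 lower (-3.01, SE 0.29, adjusted p = 4.36e-14). In Sertoli-like cells 15 were lower and 3 higher, in pre-supporting-like cells of -KTS KO 18 and 2, and in pre-granulosa-like cells of +KTS KO 17 and 3. Of the 24 proliferation genes, 24 were lower in each of the first 3 classes and 23 in the last, with median log2 fold changes of -1.07 in Sertoli-like, -2.13 in pre-granulosa-like XX WT, -2.28 in pre-supporting-like -KTS KO and -1.36 in pre-granulosa-like +KTS KO cells. Over all genes the medians were 0.01, 0.05, -0.06 and -0.01, and the shares called were 54.6%, 54.5%, 51.6% and 52.2% in the same order. In gonadal somatic cells 17 of 24 fell in XY -KTS KO, where 23.4% of all genes were called, and 11 fell in XY +KTS KO (12.6%). Between the WT sexes 11 were higher in XY (13.7%), and none passed in the XX mutants (16.3% in -KTS KO and 5.06% in +KTS KO).

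In germ-like cells of WT 11 of 24 pathway genes were higher and 10 lower, with 18 and 1 of the 24 proliferation genes, beside 81.0% of all genes called. Endothelial-like cells had 5 and 9 of the pathway and 1 and 4 of the proliferation list, beside 54.0% of all genes. In G2/M-gated cells 21 pathway genes were higher and 2 lower, beside 75.4% of all genes called. All 24 proliferation genes were higher, of which 8 are among the 9 markers that chose these cells, so that much of this count was fixed by the choice.

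Lists that mark stress were counted beside the members. Of the 13 p53 targets, 1 rose and 2 fell in XX -KTS KO, 2 rose and 3 fell in XY -KTS KO, 1 fell in XX +KTS KO and none passed in XY +KTS KO, where their sum was 874 CPM in replicate 1 and 418 in replicate 2, with Cdkn1a at 66.6 and 63.6. In pre-granulosa-like cells of XX WT 4 were higher and 4 lower, in pre-supporting-like cells of -KTS KO 1 and 2, and in germ-like cells 10 and 3. The 15 genes called immediate early here, which dissociation can induce, include the heat shock genes Hspa1a and Hspa1b. Of these 15, 1 fell in XX -KTS KO, 2 rose in XY -KTS KO and none passed in XX +KTS KO. In XY +KTS KO 2 rose, Egr2 (2.47, SE 0.66, adjusted p = 0.0388) and Hspa1a (1.42, SE 0.23, adjusted p = 0.00514). Between the WT sexes 1 was higher in XY and 2 lower. In pre-supporting-like cells of -KTS KO, where Cdkn1a was higher by 4.44, 8 of the 15 were higher and 1 lower (median 0.71), beside 51.6% of all genes called. The part of these genes in the Cdkn1a difference was not tested. In pre-granulosa-like cells 4 were higher and 7 lower in XX WT, and 3 and 6 in +KTS KO. The counts were 4 and 3 in Sertoli-like, 1 and 12 in germ-like and 3 and 5 in endothelial-like cells of WT, and 0 and 9 in G2/M-gated cells. The shares of all genes called were 16.3% (XX -KTS KO), 23.4% (XY -KTS KO), 5.06% (XX +KTS KO), 12.6% (XY +KTS KO) and 13.7% (WT sexes). By class they were 54.5% (pre-granulosa-like WT), 51.6% (pre-supporting-like -KTS KO), 52.2% (pre-granulosa-like +KTS KO), 54.6% (Sertoli-like), 81.0% (germ-like) and 54.0% (endothelial-like), and by phase 75.4%.

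Over the 12 gonadal somatic sums the members varied most for Cdkn2a (SD of log2 CPM 2.55), Cdkn2b (2.27) and Cdkn1a (0.95) and least for Cdkn2c (0.24), Cdkn2d (0.26) and Ccnd3 (0.27). Cdkn2a and Cdkn2b had means of only 0.218 and 0.973 CPM, so counting error enters their SDs and the search for genes like them. Among 5675 genes of at least 20 mean CPM, those with the pattern most like Cdkn1a were Cntnap5a, Cgn and Emx2, with mean absolute differences of 0.374, 0.393 and 0.413 in centred log2 CPM. For Cdkn2b they were Adam8 (0.636), Rgs10 (0.717) and Cygb (0.726). For Cdkn2a they were Rgs10 (1.12), Col6a1 (1.14) and Hk1 (1.21), so none was close.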

How the data were processed

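Single-cell suspensions of mouse gonads were run on a droplet platform that tags the end of each transcript, with 1 library per sample. According to the submitters' processing notes the authors made the deposited counts (raw UMI counts per gene and cell, not normalized) with Cell Ranger 6.0 on mm10, and no further filter is stated. Groups were taken from the sample labels.

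Barcodes were kept as cells from 1000 detected genes up, provided mitochondrial UMIs made up no more than 10%. A cell entered a class when at least 3 markers of that class had a UMI. Pre-supporting yielded to Sertoli and pre-granulosa, 16623 cells in more than 1 gate were set aside from the classes, and 9148 entered none. No doublet caller was run, and leaving out the 10% of cells with most UMIs was tried instead. UMIs were summed per library, or per class and library with at least 50 cells, and tested with edgeR 4.0.16 (R 4.3.3) by the quasi-likelihood test after TMM scaling and filterByExpr, and p-values were adjusted over all genes by Benjamini-Hochberg and called at 0.05. The fits between groups used 12 libraries in 6 groups without a block, and the class and G2/M fits used the library as a block. Class effects were fitted per genotype over both sexes, so a class estimate for 1 sex also draws on libraries of the other. SE was derived from the log2 fold change and the F statistic, as its size over the root of F. XY WT and XX WT were compared on autosomal genes alone. Shares of cells with a UMI were also computed after thinning cells to 5000 UMIs. Ratios of rare counts carry exact 95% intervals, which cover counting error only. The scripts were tested on simulated data with changes of 1.5, 2 and 4 times. Modelled on XX -KTS KO against XX WT, 2.39%, 26.0% and 65.8% of these were called. Shares were 24.8%, 68.1% and 87.0% for Sertoli-like cells and 90.7%, 97.6% and 95.5% for G2/M-gated cells. Far fewer genes were changed in the simulated data than passed in the real comparisons (2921 of 17912 in XX -KTS KO). The adjusted p depends on that number, so these shares need not carry over to the real data. A member not called between groups can still differ. Python 3.11.15 and DESeq2 1.42.0, an alternative, were also used.

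The members and gene lists were chosen with earlier results of these data known. Each member that passed is named in every main comparison, and members that did not pass are named only in part. Of the pathway, p53 target, proliferation and immediate early lists, counts are given and at most the 3 largest rises and the 3 largest falls among called genes are named. For the 3 members with the largest SD the 3 genes most alike are named, and markers are named where they check a label. Alternatives were another tool, filter, gate and cell set, a replicate block and leaving out each library.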

Additional observations from a re-analysis of the deposited data

Results flagged for a closer look

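The response of Cdkn1b to genotype in gonadal somatic cells differed between the sexes by a test of the difference itself (edgeR interaction term). For -KTS KO the interaction was 2.27 on the log2 scale (SE 0.26, adjusted p = 0.00489), and for +KTS KO it was 2.07 (SE 0.26, adjusted p = 0.00426). Cdkn1b was lower than WT in 4 of 4 XX mutant libraries and higher than WT in 4 of 4 XY mutant libraries. Both interactions use the same WT libraries, so they are not independent. The WT sexes themselves differed by -2.07 (XY against XX), while the mutant groups of both sexes overlapped or adjoined each other. Within interstitial-like cells Cdkn1b rose in -KTS KO of both sexes (0.63 in XX and 0.69 in XY). Groups of 2 libraries are too small to test a single library for standing apart.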

How the results depend on the processing

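Of 63 calls of a member, 45 held under every alternative run. Of 668 alternative values of called members 598 kept direction and side of the threshold, 70 no longer passed and 0 reversed. A further 17 pairs of a member and a comparison were called only under an alternative. The cause of the changes below was not tested. Cdkn2a in XY +KTS KO against XY WT, 3.27 and not called, became -0.75 over all kept cells and over all barcodes, which include germ cells. Against interstitial-like cells, Cdkn1a in Sertoli-like cells ran from -1.49 to 0.25 and Cdkn2d from -0.082 to 0.11 over single libraries left out. In cells with no G2/M marker Cdkn2d became 0.76 in Sertoli-like and 0.39 in pre-granulosa-like +KTS KO cells, and 4 members were called in Sertoli-like cells instead of 2. Members called in XX -KTS KO went from 4 to 2 over all kept cells and to 2 over all barcodes, and in XX +KTS KO from 1 to 0 and 0. In XY +KTS KO they went from 2 to 4 with DESeq2 and to 5 with no filter on low counts. Over all kept cells and over all barcodes they went to 1 and 1. Over all genes the counts there were 3283 of 25957, 2785 of 25957, 1848 of 19131 and 1935 of 19197, against 2259 of 17912. Each interaction went from 1 to 2 with DESeq2 and to 2 with no filter. In interstitial-like cells of XX -KTS KO a gate at 2 markers gave 1 instead of 3, beside 639 of 13958 genes against 843 of 14971. Leaving out 1 library gave 0 to 2 for XX -KTS KO, 0 for XX +KTS KO, 1 to 3 for XY +KTS KO, 1 to 2 for the WT sexes, 1 to 2 for Sertoli-like and 4 to 7 for pre-granulosa-like WT cells. In interstitial-like cells it gave 1 for XX -KTS KO and 0 to 1 for XY +KTS KO. Where it leaves 1 library in a group, that library is assumed to vary like the other groups.

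Whether replicate numbers pair the samples was not settled. Between groups, 7 of 15 pairs had a correlation of replicate deviations over 0.1 (range -0.44 to 0.49). XX WT, XY WT and XY -KTS KO were positive with each other (0.25, 0.49 and 0.44). Each of these groups was negative with XY +KTS KO (-0.44, -0.32 and -0.33). The main fits between groups leave out any such pairing. With the replicate number as a block the members called in gonadal somatic cells were 4, 4, 1, 3 and 3. The order is XX -KTS KO, XY -KTS KO, XX +KTS KO, XY +KTS KO and the WT sexes. Ccnd1 was added in the last 2 (-1.06, adjusted p = 0.0258, and 0.94, adjusted p = 0.0354). In the interactions 1 and 1 were called. Beside these the block called 2766, 3958, 821, 2051 and 2094 of all genes, against 2921, 4186, 906, 2259 and 2362. In the interactions it called 442 and 585 of all genes, against 564 and 712.

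Over all genes DESeq2 called 1532 of 25957 against 906 of 17912 in XX +KTS KO. In the interactions DESeq2 called 1370 against 564 and 1576 against 712, and the fit with no filter called 983 and 1235. These alternatives held 25957 genes against 17912, so their counts are not shares of the same total. All kept cells gave 1511 against 2921 (XX -KTS KO), 2450 against 4186 (XY -KTS KO), 453 (XX +KTS KO) and 1193 against 2362 (WT sexes), and in the interactions 178 and 278. All barcodes gave 1520, 2479, 474, 1228, 178 and 278. Without G2/M-marked cells endothelial-like cells had 3253 of 15022 against 8887 of 16450, and Sertoli-like cells 7160 against 8974. In interstitial-like cells of XX +KTS KO 80 became 35 with the block, 11 with a gate at 2 markers and 127 at 4. Leaving out 1 library gave 164 to 314 in XX +KTS KO, 1144 to 1463 in XX -KTS KO, 2115 to 2726 in XY -KTS KO, 714 to 3049 against 2259 in XY +KTS KO, 745 to 1881 between the WT sexes, and 89 to 711 and 181 to 1536 in the interactions. In interstitial-like cells it gave 295 to 349 against 843 (XX -KTS KO), 1274 to 1665 against 2968 (XY -KTS KO), 0 to 34 (XX +KTS KO) and 56 to 579 against 661 (XY +KTS KO), and in germ-like cells at most 44. Rare counts limit Cdkn2a and Cdkn2b, the members with the lowest mean CPM in gonadal somatic cells.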

Other observations

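Some values belong to none of the comparisons above. Erythroid-gated cells, present with at least 50 cells in 10 libraries, had Ccnd3 at 783 to 1571 CPM, Cdkn2d at 188 to 391, Cdkn1b at 61.6 to 159 and Cdkn2c at 8.37 to 62.3. For Ccnd3, Cdkn2d and Cdkn2c each of these libraries lay above every gonadal somatic sum, where the highest values were 226, 38.1 and 1.66 CPM. Erythroid cells are red blood cell precursors, and this difference was not tested.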
